A study of Mus musculus with 16 samples.

Results

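The strongest distal accessible regions that all libraries share are a set of 596 intervals of the mouse genome (build mm10). ATAC-Seq marks open chromatin by where the Tn5 transposase cuts, and 1 deposited peak list was used for each library. In each of the 16 peak lists, intervals were ranked by −log10 p against the local background, with rank 1 the strongest deposited interval, and the 10000 strongest were kept. The peaks of all lists were merged into 296215 regions, of which 291316 lay on chromosomes 1 to 19. A region was kept when each of the 16 lists placed an interval in it among its strongest 10000 and when it lay more than 3 kb from any transcript start of GENCODE M21. These conditions left 596 members among 211104 distal regions and 18384 distal regions with a peak in all 16 libraries. Because the members were chosen by their −log10 p ranks, ranks and peak strength are given below as a description. Regions are called by the gene with the nearest transcript start, which does not say that the region acts on that gene.

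C57BL/6 mouse bone marrow was sorted for HSPCs, the hematopoietic stem and progenitor cells, with 4 libraries from each of 4 genotypes. WT mice were Ep300 fl/fl without Cre, P300KO mice were Mx1-Cre;Ep300 fl/fl, TET2KO mice were Ep300 fl/fl;Tet2-/- and P300KO_TET2KO mice were Mx1-Cre;Ep300 fl/fl;Tet2-/-. Every mouse, WT included, had received poly(I:C), which switches on the interferon-inducible Mx1 promoter and so Cre, in other tissues as well as in blood. Each library pooled cells of a pair of mice, so p-values measure the spread between these pools. In a bulk sort, fewer cells of a type and less accessibility per cell cannot be told apart.

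Distal open chromatin holds enhancers, where transcription factors recruit coactivators such as the acetyltransferase p300, and insulators, where the zinc finger protein Ctcf binds a long sequence and halts cohesin. Open promoters are often CpG islands, stretches rich in CpG and in GC boxes, the binding sequence of Sp1-type factors. In HSPCs, enhancers commonly carry sequences of the Ets, Runx, Gata, Cebp and E-box factors. Tet2 oxidizes methylated cytosine and acts at many enhancers of blood cells.

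The 4 replicates of a genotype were deposited as 2 sets, replicates 1 and 2 and replicates 3 and 4, and nothing in the sources used here states what differed between the sets. The lists held from 86039 intervals in P300KO replicate 2 to 137335 in TET2KO replicate 3, and the −log10 p of the interval at rank 10000 ran from 19.9 in WT replicate 1 to 451 in P300KO_TET2KO replicate 3. The study's methods name a minimum number of reads for every library, but the files hold no read counts, so the depth of each library is unknown, and ranks within a list were compared in place of peak strength. The labels of replicates 1 and 2 also name a list per genotype, which was not analysed here, while the lists of the 2 replicates differed. Peak numbers followed −log10 p within every list, and 271 to 482 numbers were absent from a list, with a first number of 2 to 16. Of the first 100 numbers, 30 to 69 were absent in set 1 and 12 to 23 in set 2, so the strongest peaks called are partly missing and ranks count only the deposited intervals. A promoter peak was present in all 16 libraries at 11 of 11 stem and progenitor marker genes. It was also present in all 16 at 2 of 4 B cell, 1 of 4 T cell, 3 of 4 erythroid, 2 of 4 neutrophil, 1 of 2 NK cell and 2 of 5 non-blood marker genes, with Ly6g, Ncr1, Alb and Ins2 at 0 libraries. The part of other cells in the results was not tested.

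Sequences were read from the mm10 reference (RefSeq GRCm38.p6) in a window of 201 bp centred on the summit, the position of highest signal. Strings of letters known for blood factors were searched on both strands. They were Ets GGAAGT, Spi1 GAGGAAGT (which contains the Ets string), the Gata string AGATAA with its variant TGATAA, Runx TGTGGT, Cebp TTGCNNAA, Ap1 TGANTCA, Ebox CAGATG with its variant CAGCTG, Myb CAACTG, the CCAAT box, and the Ctcf and Irf consensus sequences. The GC box CCCCGCCC was added to these 11 strings because it led the comparison of 8-letter words given below. A match describes the letters and is no evidence of a bound factor. The first set of windows is shown because these members, at places 1, 2, 9, 8, 12 and 18 in the order of mean rank, are among the strongest and hold sequences of different kinds. In the Abcb11 line the whole region is printed and capitals mark the stretch that matches the mitochondrial genome. In all other lines capitals mark the strings just named, the GC box included.
Abcb11 (chr2:69355469-69355735, plus strand): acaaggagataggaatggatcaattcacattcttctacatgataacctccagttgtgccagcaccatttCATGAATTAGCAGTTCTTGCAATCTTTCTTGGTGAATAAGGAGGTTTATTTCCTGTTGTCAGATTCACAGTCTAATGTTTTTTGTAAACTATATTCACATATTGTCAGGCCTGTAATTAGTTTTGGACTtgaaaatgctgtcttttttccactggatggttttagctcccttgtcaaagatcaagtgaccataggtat
Gm48679 (chr10:11492059-11492259, plus strand): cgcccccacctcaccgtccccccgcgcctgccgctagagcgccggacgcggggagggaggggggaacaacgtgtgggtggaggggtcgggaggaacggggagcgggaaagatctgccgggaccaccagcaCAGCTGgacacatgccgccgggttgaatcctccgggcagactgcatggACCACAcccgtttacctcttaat
Cd209a (chr8:3754333-3754533, plus strand): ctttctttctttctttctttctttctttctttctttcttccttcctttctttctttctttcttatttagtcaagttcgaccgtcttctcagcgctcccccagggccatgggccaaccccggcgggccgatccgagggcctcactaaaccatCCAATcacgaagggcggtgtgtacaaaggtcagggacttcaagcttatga
Zfp395 (chr14:65343772-65343972, plus strand): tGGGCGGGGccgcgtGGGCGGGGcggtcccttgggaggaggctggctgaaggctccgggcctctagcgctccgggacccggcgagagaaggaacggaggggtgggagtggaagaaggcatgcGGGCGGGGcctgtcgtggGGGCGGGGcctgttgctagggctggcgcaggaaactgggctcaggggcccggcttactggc
Gm49539 (chr15:85634609-85634809, plus strand): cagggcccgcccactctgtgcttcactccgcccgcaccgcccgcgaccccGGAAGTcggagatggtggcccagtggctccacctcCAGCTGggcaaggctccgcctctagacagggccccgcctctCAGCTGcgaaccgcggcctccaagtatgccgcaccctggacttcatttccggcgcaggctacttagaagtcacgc
Ccne1 (chr7:38084919-38085119, plus strand): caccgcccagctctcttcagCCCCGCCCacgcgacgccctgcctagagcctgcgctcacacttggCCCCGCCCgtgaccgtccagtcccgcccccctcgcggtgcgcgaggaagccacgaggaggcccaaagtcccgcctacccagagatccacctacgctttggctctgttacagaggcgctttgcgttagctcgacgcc
The Abcb11 stretch of 129 bp was identical to mitochondrial DNA. The windows near Zfp395, a zinc finger gene, and Ccne1, which encodes the cyclin that drives entry into S phase, held 4 and 2 GC boxes.

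The second set is shown because these members stand for the content of the rest. Stard10 carried the Ctcf sequence, Scn10a had the most stable rank, and Runx1 and Cebpe lie near genes of blood transcription factors. Gm5857 and Rab11fip5 had the smallest adjusted p-values for P300KO against WT.
Stard10 (chr7:101310699-101310899, plus strand): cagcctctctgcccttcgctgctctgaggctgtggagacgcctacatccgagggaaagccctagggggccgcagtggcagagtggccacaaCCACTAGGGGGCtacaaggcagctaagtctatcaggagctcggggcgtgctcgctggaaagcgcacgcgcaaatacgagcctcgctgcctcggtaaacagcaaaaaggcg
Scn10a (chr9:119744013-119744213, plus strand): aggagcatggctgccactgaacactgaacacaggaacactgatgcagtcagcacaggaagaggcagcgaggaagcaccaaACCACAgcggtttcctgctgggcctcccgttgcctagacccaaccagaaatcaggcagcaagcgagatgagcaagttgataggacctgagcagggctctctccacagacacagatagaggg
Runx1 (chr16:92801663-92801863, plus strand): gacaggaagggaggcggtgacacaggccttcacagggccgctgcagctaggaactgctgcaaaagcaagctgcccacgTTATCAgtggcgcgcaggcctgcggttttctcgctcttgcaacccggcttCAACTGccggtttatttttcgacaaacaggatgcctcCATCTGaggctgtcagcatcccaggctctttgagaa
Cebpe (chr14:54705908-54706108, plus strand): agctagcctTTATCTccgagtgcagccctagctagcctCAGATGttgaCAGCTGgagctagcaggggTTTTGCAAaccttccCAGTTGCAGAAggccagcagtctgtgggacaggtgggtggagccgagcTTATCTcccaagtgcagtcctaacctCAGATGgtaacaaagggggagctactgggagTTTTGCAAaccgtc
Gm5857 (chr3:144381062-144381262, plus strand): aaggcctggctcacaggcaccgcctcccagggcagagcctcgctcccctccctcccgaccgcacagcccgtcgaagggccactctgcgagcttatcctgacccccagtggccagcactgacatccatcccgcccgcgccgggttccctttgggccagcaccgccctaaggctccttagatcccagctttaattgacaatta
Rab11fip5 (chr6:85380615-85380815, plus strand): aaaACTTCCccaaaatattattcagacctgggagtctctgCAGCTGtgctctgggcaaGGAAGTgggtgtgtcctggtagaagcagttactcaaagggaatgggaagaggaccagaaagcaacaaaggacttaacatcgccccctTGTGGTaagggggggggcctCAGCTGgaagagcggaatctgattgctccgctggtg
The Cebpe window held 2 Gata, 3 Cebp, 3 Ebox strings and 1 Myb string. The Gm5857 window held none of the strings, although it was GC-rich at 64.7%.

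Members were wide and lay at a moderate distance from genes. The median region width was 1053 bp (range 267 to 2223) against 854 bp for the other 17788 distal regions shared by all libraries. The nearest transcript start was at a median of 10.4 kb (range 3.01 to 238) against 11.9 kb, and the nearest start of a protein-coding gene at 15.99 kb against 18.1 kb. The annotation placed 310 summits (52.0%) between genes, 261 (43.8%) in introns and 25 (4.19%) in exons, against 46.8%, 48.5% and 4.73% of the other shared distal regions. Summits were well placed, with a median SD of position over the 16 libraries of 10.1 bp for members and 13.4 bp for the others. Strong shared regions were mostly promoters. Of 6759 regions with an interval among the strongest 10000 of every list, 6163 lay within 3 kb of a start. In each library the 596 members were 31.3% to 44.4% of the 1342 to 1903 distal regions among its strongest 10000.

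Ctcf sequences were less frequent in members than in the other shared distal regions as a whole, while a difference from the next strongest of them was not distinguishable. The consensus was found in 30 of 596 members (5.03%, Wilson 95% interval 3.55 to 7.09, counting error only) and in 10.1% of the others, 2.47% of all distal regions and 1.23% of the 6163 strongest regions near starts. The interval of the members' share lay below the share of the others. In members the 31 Ctcf matches lay at a median of 38.5 bp from the summit and 35.5% of them were within 25 bp of it. In the other shared distal regions the median of 1808 matches was 9.5 bp and 86.0% of them were within 25 bp. By library, 59.6% to 73.0% of members and 18.1% to 56.7% of the others had several summits in the interval. The part of this in the distances was not tested. When 1 mismatch was allowed, 16.8% of members and 25.7% of the others held the sequence. With 50 bp on either side of the summit the shares were 3.02% and 9.72%, and over the whole region they were 7.38% and 10.8%. Among the other shared distal regions the share depended on rank. It was 6.79% of the 884 whose mean rank was under 10000 (median 8497, against 4925 for members, so these next strongest regions are nearer to members but still weaker), 13.0% of those between 20000 and 30000, and 6.04% of those above 40000. The interval of the members' share lay below the second of these values and contained the first and the last. The members' share was lower than the first by 1.75 percentage points, and the Newcombe 95% interval of members minus these regions ran from −4.13 to 0.783. With intervals ordered by fold enrichment in place of −log10 p the share of members was 8.08%, and with the strongest 20000 intervals of each list it was 8.53%. Accessibility and sequence do not tell an insulator from an enhancer, and no histone or Ctcf binding data were analysed here.

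**Figure D1:**
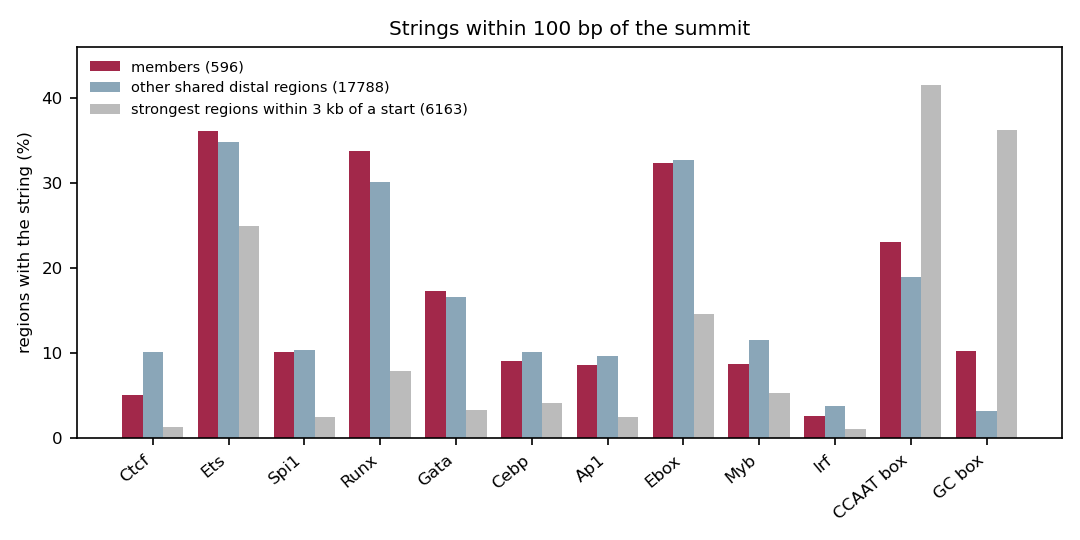
Percent of regions (y axis) whose 201 bp summit window holds each string (x axis), for the 596 members, the 17788 other shared distal regions and the 6163 strongest regions within 3 kb of a start. Members lie below the other shared distal regions for Ctcf (5.03% against 10.1%) and above them for the GC box (10.2% against 3.10%), while the 884 next strongest others, which are not drawn apart, held these in 6.79% and 5.77%.

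The shares of the blood factor strings in members were set beside those of all 17788 other shared distal regions and of the 884 next strongest, whose mean rank was under 10000. Ets was found in 36.1% of members and 34.9% of the others, Spi1 in 10.1% and 10.3%, Gata in 17.3% and 16.6%, and Ebox in 32.4% and 32.7%. Runx was found in 33.7% and 30.1%, Cebp in 9.06% and 10.1%, Ap1 in 8.56% and 9.66%, and Irf in 2.52% and 3.70%. For these 8 strings the Wilson 95% interval of the members' share contained the share of the others, so no difference from these others as a whole was distinguishable. Myb was less frequent in members than in the others (8.72%, interval 6.72 to 11.3, against 11.6%), and the CCAAT box was more frequent (23.0%, interval 19.8 to 26.5, against 18.9%). The next strongest regions held Ets in 41.2%, Spi1 in 13.6% and Ap1 in 12.6%. Members minus these regions was −5.10 percentage points for Ets (Newcombe 95% interval −10.1 to −0.0326), −3.51 for Spi1 (−6.75 to −0.104) and −3.9995 for Ap1 (−7.08 to −0.768), with no correction for the number of strings. For Gata (13.8%), the CCAAT box (19.2%), Myb (9.39%), Runx (33.9%), Cebp (9.84%), Ebox (33.7%) and Irf (4.07%) the interval of the difference held 0. In all distal regions the shares were 24.9% for Ets, 6.29% for Spi1, 15.9% for Gata, 23.1% for Runx, 8.402% for Cebp, 8.09% for Ap1, 29.6% for Ebox, 11.2% for Myb, 21.5% for the CCAAT box and 2.71% for Irf. None of the 11 strings was found in 76 members (12.8%), in 12.1% of the others and in 18.8% of all distal regions. The windows near starts differed from those of members, with 7.90% for Runx, 3.28% for Gata and 41.5% for the CCAAT box.

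**Figure D2:**
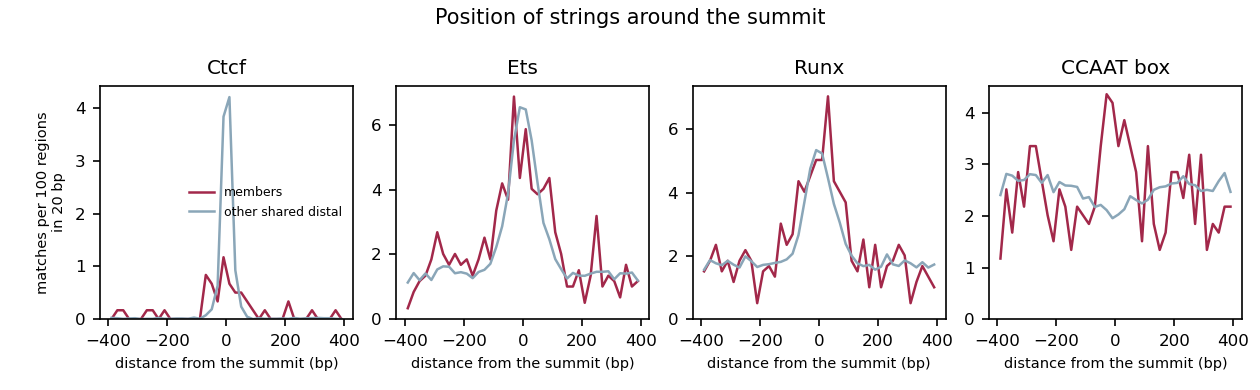
Matches per 100 regions in bins of 20 bp (y axis, own scale in each panel) by distance from the summit in bp (x axis) for 4 strings, in members and in other shared distal regions. Ctcf matches of the other regions pile up at the summit, reaching 4.22 per 100 regions at 10 bp, while those of members reach 1.17 and spread to both sides. Within 100 bp of the summit, members held 31 Ctcf matches.

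Members were richer in GC and CpG than other distal regions, but less so than promoters. The mean GC share of the window was 57.2% in members, 51.3% in the other shared distal regions, 49.1% in all distal regions and 65.6% in the strongest regions near starts. The median ratio of observed to expected CpG was 0.351 in members, 0.242 in the others, 0.176 in all distal regions and 0.846 near starts. Windows with a ratio above 0.6 and a GC share above 50%, the usual mark of a CpG island, were 139 members (23.3%), 4.72% of the other shared distal regions and 86.1% of the strongest regions near starts. The 884 next strongest regions lay between members and the others, with a mean GC share of 54.7%, a median CpG ratio of 0.299 and such windows in 11.0%. The 8-letter words that exceeded the other regions most in members were of the GC box type. CCCCGCCC was in 10.2% of members and 3.10% of the others (5.77% of the next strongest, 1.39% of all distal regions, 36.2% of the strongest regions near starts), GCCCCGCC in 9.40% and 2.39%, and GCTCCGCC in 6.71% and 0.978%. ATTGGCTG, which contains the CCAAT box on the opposite strand, was in 4.87% and 0.810%, GCCACAGC in 7.21% and 3.08%, and CAGGAAGC, which holds the Ets core GGAA, in 11.9% and 7.28%. Among the words that were scarcer in members was CCACTAGA, a part of Ctcf-type sequences, in 0.671% and 2.91%.

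The members were also split into 4 groups of 149 by mean rank, the first up to 3599 and the last from 6124 on. Runx was found in 24.2% of the first group and in 38.9%, 35.6% and 36.2% of the next 3, lowest in the first and with no order among the others. Spi1 was at 6.04%, 8.72%, 15.4% and 10.1%, highest in the third group. The CCAAT box was at 29.5%, 23.5%, 20.1% and 18.8% and Gata at 12.1%, 17.4%, 18.8% and 20.8% in the same order. For all 4 strings the Wilson 95% intervals of the first and last groups overlapped, which does not decide whether these groups differ. An interval of the difference was not computed for them. The mean CpG ratio was 0.506, 0.378, 0.396 and 0.359. Ctcf was found in 5.37% of each of the first 3 groups and 4.03% of the last.

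The distal label rests on one annotation. In RefSeq, 108 members (18.1%) had a transcript start within 3 kb and in 60 (10.1%) a start lay inside the region. The shares were 9.66% and 3.002% for the other shared distal regions. Curated RefSeq starts were within 3 kb of 20 members and inside 17. Inside the Gm49539 region lay the start of D130051D11Rik, and inside the Gm5857 region that of Gm34434. The 488 members without a RefSeq start within 3 kb kept a mean GC share of 56.8%, CpG-island windows in 20.9%, and the Ctcf sequence in 5.12%.

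A group of 13 members stood apart in both strength and spread. The SD of log2 rank over the 16 libraries was above 2.5 in these 13 and at most 2.07 in the other 583, and only 5 of the 17788 other shared distal regions (0.0281%) exceeded 2.5. They were narrow, at 267 to 550 bp, whereas other members measured 515 to 2223 bp. Over all libraries pooled, their median fold enrichment over local background was 35.7 against 16.2 for the other members. They included 9 of the 10 members with the lowest mean rank, those nearest to Abcb11, Gm48679, Lars2, Hic2, Gm43393, AC154187.1, Gm43980, Cd209a and Gm48224, and only the Zfp395 region of these 10 was not among them.

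Most of the 13 resembled sequence elsewhere. The regions near Abcb11, Gm43393, Gm47397 and AC115970.1 matched the mitochondrial genome over 129, 383, 365 and 352 bp at 100%, 97.9%, 99.7% and 97.4% identity. Cd209a and Gnb1l matched the annotated 18S ribosomal RNA copy over 378 bp at 83.3% and 138 bp at 100%. The regions near Lars2, Hic2, AC154187.1, Gm43980 and Gm48224 were alike to at least 1 other member over 80 bp or more at 95% identity or more, and Gm48679 and Gm27679 had none of these matches. The reference annotates only part of a 28S ribosomal RNA gene, so likeness to the rest of it was not tested. Among the other 583 members 12 were alike to another member, 0 matched the mitochondrial genome and 0 matched ribosomal RNA. What part this likeness has in their ranks was not tested.

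**Figure D3:**
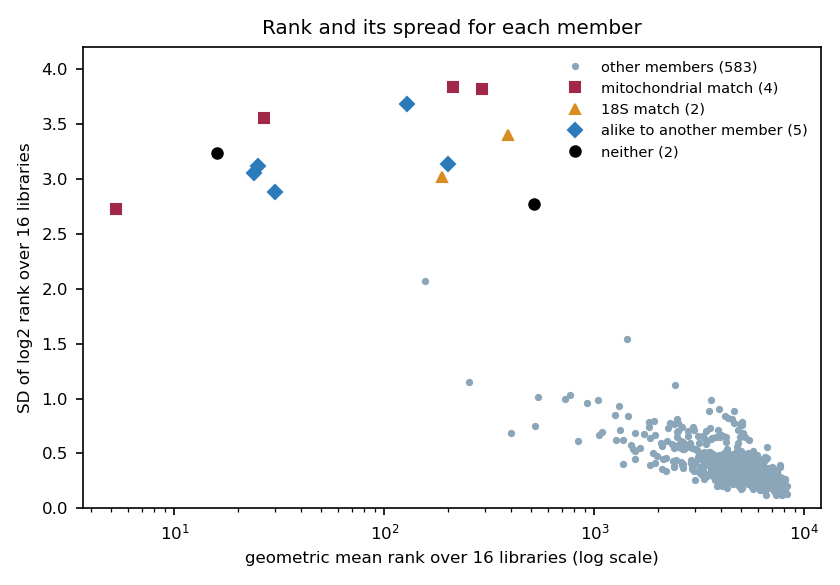
SD of log2 rank over the 16 libraries (y axis) against geometric mean rank (x axis, log scale) for each of the 596 members. The 13 members above an SD of 2.5 are marked by the kind of sequence they match, and the other 583 lie at or below 2.07.

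These 13 members lay furthest down the lists in P300KO_TET2KO, except for its replicate 1, and then in TET2KO replicates 3 and 4. Their median rank in replicates 1 to 4 was 11, 13, 31 and 53 in WT, and 11, 13, 8 and 17 in P300KO. It was 15, 15, 752 and 381 in TET2KO, and 123, 1085, 5486 and 2501 in P300KO_TET2KO. The lowest P300KO_TET2KO median lay above all WT and P300KO medians, but not above those of TET2KO replicates 3 and 4. Fold enrichment did not follow this order, with library medians between 26.5 and 43.9 and values of 32.5, 37.4, 37.2 and 40.6 in P300KO_TET2KO. Their median −log10 p was 360 in WT replicate 1 and 674 in P300KO_TET2KO replicate 3, while the list value at rank 10000 was 19.9 and 451 in the same libraries. Absent numbers among the first 100 were also fewest in P300KO_TET2KO within each set, at 39, 30, 12 and 14 in its replicates 1 to 4, where the other libraries lacked 47 to 69 in set 1 and 16 to 23 in set 2. The part of the missing peaks in these ranks was not tested.

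The Abcb11 region, near the gene of the bile salt export pump, was at rank 1, 1, 31 and 7 of the WT lists, 1, 1, 3 and 3 of P300KO, 1, 1, 19 and 47 of TET2KO, and 4, 6, 869 and 10 of P300KO_TET2KO. All groups overlapped except that the P300KO ranks lay below those of P300KO_TET2KO. The Gm48679 region was at rank 7, 6, 2 and 5 of the WT lists, 8, 10, 2 and 2 of P300KO, 9, 7, 6 and 8 of TET2KO, and 64, 102, 3066 and 2039 of P300KO_TET2KO. All 4 P300KO_TET2KO libraries were weaker than the other 12. The 5 largest SDs of log2 rank were 3.84 for Gm47397, 3.82 for AC115970.1, 3.68 for Gm43980, 3.55 for Gm43393 and 3.40 for Gnb1l.

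Outside these 13, ranks varied less. The SD of log2 rank had a median of 0.350 in the other 583 and ran up to 2.07 in the Zfp395 region, and over all members the worst rank was a median of 2.45 times the best. Of these 583, 217 differed between the deposit sets in the fit described below. In that fit the share was 37.2% of all 596 members and 35.8% of all tested regions. The Scn10a region, near the gene of a sodium channel of sensory neurons, had the smallest SD, 0.122. WT libraries ranked it 7197, 5819, 6224 and 7019, P300KO libraries 6639, 5737, 7185 and 6671, TET2KO libraries 6541, 6911, 6184 and 6794, and P300KO_TET2KO libraries 5520, 7119, 6393 and 7101. The 4 genotypes overlapped throughout. Next were Cebpb (0.125, ranks 6709 to 9587), D5Ertd579e (0.126, 6368 to 8327), Fosb (0.127, 6398 to 8541) and Cdk17 (0.133, 6606 to 8628). Cebpb and Fosb encode transcription factors of the bZIP family, and the Cebpb region lies in an intron of Tmem189. The choice of members bounds the spread at this end, since no rank could exceed 10000.

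**Figure D4:**
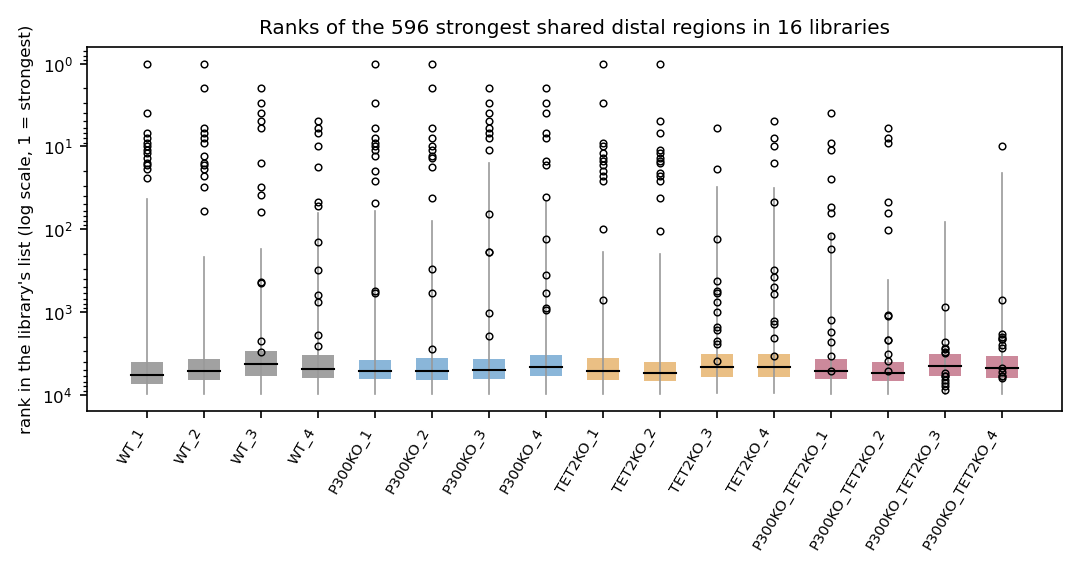
Rank of the 596 members (y axis, log scale, 1 strongest) in each of the 16 libraries (x axis). Boxes span the interquartile range of the 583 members of lower SD with a line at their median, thin lines span their full range, and circles are the 13 members with an SD of log2 rank above 2.5, whose median lies furthest down the lists in P300KO_TET2KO replicates 2 to 4 (1085, 5486 and 2501) and then in TET2KO replicates 3 and 4 (752 and 381).

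Median member ranks by −log10 p followed the deposit set in every genotype. In replicates 1 to 4 the median was 5833, 5190, 4198.5 and 4842 for the WT libraries and 5134.5, 5086.5, 5000.5 and 4600 in P300KO. It was 5080.5, 5386, 4522.5 and 4579.5 in TET2KO and 5067, 5413, 4485 and 4755.5 in P300KO_TET2KO. In each genotype both replicates of set 2 lay below both of set 1. The SD of log2 rank within a genotype had a median of 0.413 for WT libraries, 0.323 for P300KO, 0.301 for TET2KO and 0.255 for P300KO_TET2KO. Between the replicates of set 1 a member differed by a median of 0.41 in WT and 0.21 in P300KO_TET2KO on the log2 scale, and WT replicate 1 was the list with the lowest −log10 p. Of the variance of a member's log2 rank, a median of 18.6% lay between genotypes, 20.2% between sets and 51.9% within both, against 18.9%, 17.9% and 52.7% over all 38694 regions with a peak in all libraries. These shares are not adjusted for the number of levels, 4 genotypes and 2 sets. More levels take up more spread by chance, so the genotype and set shares cannot be compared with each other. The genotype with the lowest mean rank was WT for 172 members, P300KO for 150, TET2KO for 124 and P300KO_TET2KO for 150.

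Ranks were compared between genotypes with limma on log2 rank over the 38694 regions, with genotype and deposit set as terms and Benjamini-Hochberg adjusted p under 0.05 as the threshold. A negative difference is a stronger rank in the first-named genotype. The same ranks chose the members, which had to stay within rank 10000 in every library, so the counts of members are set beside those over all regions and nothing is read from them.

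For P300KO_TET2KO against TET2KO, which asks about p300 loss in Tet2-deficient cells, 0 members passed, where 0.0439% of all tested regions did. At an unadjusted p under 0.05 limma gave 50 members (8.39%), where 7.79% of all tested regions were under it. The smallest adjusted p belonged to the Cd209a region, at 0.07022. The Cebpe region, near the gene of a factor of granulocyte maturation, ranked 8258, 8079, 9433 and 9595 in TET2KO and 5494, 5623, 5359 and 4386 in P300KO_TET2KO. All 4 P300KO_TET2KO libraries were stronger, with a difference of −0.76 ± 0.16 (SE) and an adjusted p of 0.08208, which missed the threshold. The ranks of the 2 genotypes did not overlap in 28 members (4.70%), where 5.12% of all tested regions and 5.77% of the other shared distal regions did not overlap. Within set 1 alone 0 members and 0 of all tested regions passed. Within set 2 alone 8 members passed (1.34%, against 1.54% of all tested regions), without WT replicate 1 it was 4 (0.671%, against 0.576%) and without WT replicate 2 it was 1 (0.168%, against 0.119%).

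For P300KO against WT, 5 members (0.839%) passed, where 0.835% of all tested regions did. Stronger in P300KO was the Gm5857 region (chr3:144380803-144382131), 176 kb from the start of Lmo4, which encodes a LIM-domain cofactor. It ranked 7285, 7402, 8540 and 5761 in WT and 4794, 3404, 3321 and 3602 in P300KO, without overlap, a difference of −0.94 ± 0.18 (SE) with an adjusted p of 0.01543. The Rab11fip5 region (chr6:85380160-85381157), near the gene of a vesicle-recycling protein, ranked 9440, 8538, 8052 and 7096 in WT and 4899, 5340, 4884 and 5000 in P300KO, also without overlap, and differed by −0.71 ± 0.16 (adjusted p = 0.03931). The A430078I02Rik region (chr6:86471898-86473114), in an exon of C87436, ranked 1678, 2403, 1428 and 4847 in WT and 188, 80, 2146 and 697 in P300KO, and these groups overlapped. Its difference was −2.57 ± 0.60, with an adjusted p of 0.04418.

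The other 2 of these 5 members were weaker in P300KO. The Adamtsl2 region (chr2:27121675-27122994), in an intron of Fam163b, ranked 4406, 5805, 1976 and 1831 in WT and 8314, 6307, 5563 and 4280 in P300KO, and differed by 0.94 ± 0.22 (adjusted p = 0.04589). The groups overlapped, and within each set both P300KO libraries were weaker. The Arhgap18 region (chr10:26798926-26800212), in an intron of that gene, ranked 3089, 4321, 2122 and 3303 in WT and 6963, 5777, 5036 and 4545 in P300KO. These did not overlap, and the difference was 0.82 ± 0.20 (adjusted p = 0.04589). In all, 24 members (4.03%) did not overlap between these genotypes, where 4.37% of all tested regions did not. Without the set term 0 members passed (0.0724% of all tested regions), with a replicate block 1 (0.168%, against 0.519%), within set 1 alone 0 (0 regions) and within set 2 alone 15 (2.52%, against 2.97%). The count was 13 without WT replicate 1 (2.18%, against 1.67%), 8 without WT replicate 2 (1.34%, against 1.44%), 3 without TET2KO replicate 1 (0.503%, against 0.757%), and 1 or 2 without any 1 of the other 13 libraries (0.225% to 0.876% of all tested regions). With intervals ordered by fold enrichment 0 members passed, and 0.0594% of all tested regions.

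**Figure D5:**
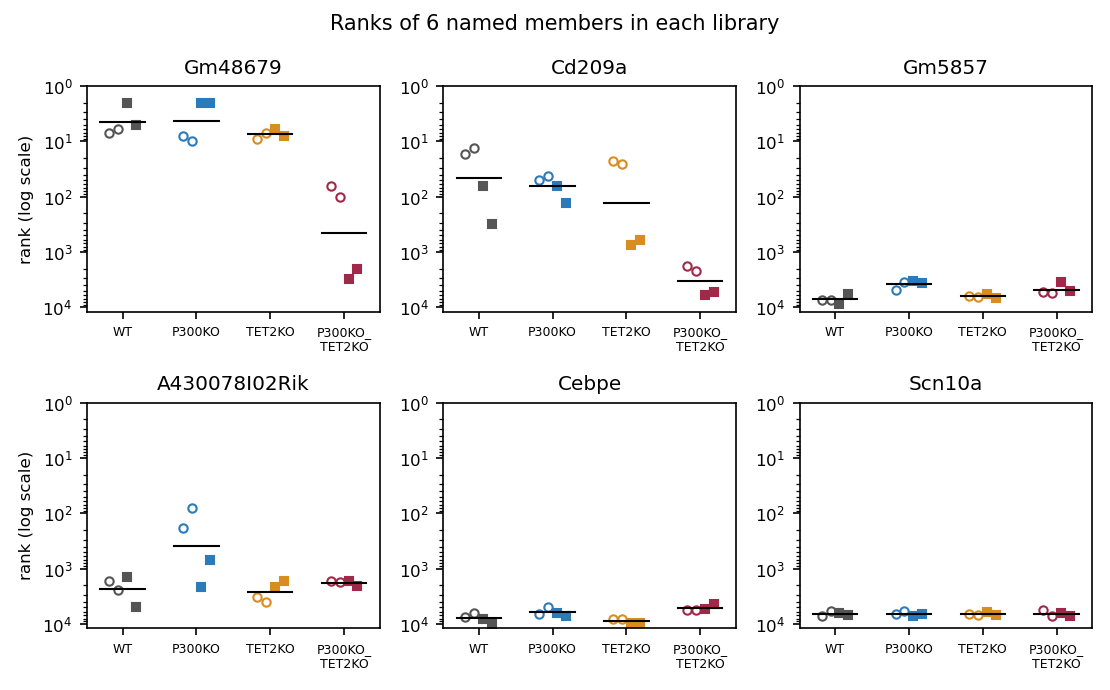
Rank in each library (y axis, log scale, 1 strongest) of 6 members by genotype (x axis), with open circles for replicates 1 and 2, filled squares for replicates 3 and 4, and a line at the geometric mean. Gm48679 and Cd209a are weakest in P300KO_TET2KO, Gm5857 and Cebpe shift by less than 1 on the log2 scale, and Scn10a keeps its rank.

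For P300KO_TET2KO against P300KO, 3 members (0.503%) passed, where 0.171% of all tested regions did, and all 3 belonged to the 13 members of high SD. The Cd209a region (chr8:3754314-3754820) ranked 49, 42, 65 and 132 in P300KO and 1750, 2212, 5925 and 5341 in P300KO_TET2KO, a difference of 5.68 ± 0.94 (SE, adjusted p = 0.00904). The Gm48224 region (chr12:78350798-78351246), in an intron of Gphn, ranked 20, 18, 189 and 596 and then 1270, 1085, 5949 and 4794, a difference of 4.97 ± 0.99 (adjusted p = 0.0363). The Gm43980 region (chr6:49236380-49236682), near Igf2bp3, ranked 26, 301, 11 and 8 and then 2324, 3205, 7172 and 5896, a difference of 7.19 ± 1.47 (adjusted p = 0.04153). In all 3 regions each P300KO_TET2KO library was weaker than each P300KO library. Over the members, 33 (5.54%) did not overlap between these genotypes, where 4.84% of all tested regions did not. With a replicate block 1 member passed (0.168%, against 0.155% of all tested regions), without the set term 0 (0.0258%), within set 1 alone 0 (0.00517%) and within set 2 alone 9 (1.51%, against 0.845%). The count was 8 without WT replicate 1 (1.34%, against 0.809%), 1 without P300KO replicate 1 or 4 or TET2KO replicate 3 or 4 (0.0594% to 0.173% of all tested regions), and 0 without any 1 P300KO_TET2KO library (0.04135% to 0.0982%). By fold enrichment it was 1 (0.277%). Without the 13 members, a choice made after seeing the data, 0 members passed by −log10 p.

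For TET2KO against WT, 0 members passed, where 0.00517% of all tested regions did, and limma gave 47 members (7.89%) at an unadjusted p under 0.05, where 11.2% of all tested regions were under it. The smallest adjusted p, 0.1084, was that of a region in an intron of 4930471E19Rik (chr10:120685843-120686764), which ranked 3881, 1683, 3235 and 4097 in WT and 7405, 5585, 6285 and 7100 in TET2KO. These did not overlap, and the difference was 1.10 ± 0.23 (SE). In all, 12 members (2.01%) did not overlap between these genotypes, where 2.65% of all tested regions did not. Without WT replicate 1 the count was 1 member and 25 of all tested regions. Within either set it was 0 members, against 0.00517% of all tested regions in set 1 and 0.0775% in set 2. The interaction of p300 and Tet2 loss was passed by 0 members and 0% of all tested regions in limma, with 21 members (3.52%) and 5.14% of all tested regions at an unadjusted p under 0.05.

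Deposit set 2 differed from set 1 in 222 members (37.2%), where 35.8% of all tested regions passed. Of these members, 161 were stronger in set 2 and 61 weaker. The other shared distal regions leaned the same way, with 3911 stronger and 2141 weaker, while over all tested regions, promoters included, 6738 were stronger and 7127 weaker. The direction turned when intervals were ordered by fold enrichment, with 47 members stronger in set 2 and 366 weaker (69.3% of members called, against 63.7% of all tested regions, of which 8435 were stronger and 16227 weaker). The smallest adjusted p-values belonged to the 9530036M11Rik region (−1.61 ± 0.16, SE), the Trf region, near the gene of the iron carrier transferrin (−1.29 ± 0.13), and the Hip1 region (−1.66 ± 0.17), all stronger in set 2. They were followed by 2 regions with mitochondrial matches, AC115970.1 (6.35 ± 0.67) and Gm47397 (6.64 ± 0.72), which were weaker in set 2. The comparisons between genotypes share libraries, and each was read for its own values.

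Members lay near genes of many kinds. The nearest protein-coding start belonged to 541 genes, of which 50 were nearest to more than 1 member. Nearest to 3 members each were Fam49a, Cbfa2t3, Gse1, Ptma and Bahcc1, of which Cbfa2t3 encodes a corepressor of blood transcription factors and Ptma a small nuclear protein of dividing cells. Within 10 kb of another member lay 22 members, and within 50 kb 84.

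Among 64 blood transcription factors, 10 genes were nearest to 14 members (2.35% of members, 1.501% of the other shared distal regions), and 13 had a member within 100 kb. The strongest were a region 17.9 kb from Fos, which encodes an AP-1 subunit (ranks 699 to 3925), and one 51.3 kb from Runx3 (3072 to 8118). They were followed by regions nearest to Gata3 (279 kb, in an intron of Gm13218, 2147 to 6363), Fos again (10.7 kb, 565 to 6576), Runx2 (79.4 kb, 3732 to 8379) and Runx1 (23.6 kb, in its intron, 3067 to 7239). Runx1 is required for the first blood stem cells, and its region ranked 5192, 5019, 5271 and 6634 in WT and 5327, 4315, 7162 and 6815 in P300KO_TET2KO, with overlap. Members also lay nearest to Hlf and Meis1, regulators of stem cells, and to Cebpe, Cebpb and Ets1.

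Among 20 cell cycle and survival genes, 5 were nearest to 8 members (1.34%, against 0.259% of the other regions), and 6 had a member within 100 kb. The Ccne1 region, 13.1 kb from the start, was the strongest. WT libraries placed it at 373, 444, 403 and 322, P300KO libraries at 1555, 114, 253 and 1180, TET2KO libraries at 454, 489, 575 and 418, and P300KO_TET2KO libraries at 1600, 1132, 919 and 509. All 4 P300KO_TET2KO libraries were weaker than all 4 WT libraries, WT and TET2KO ranks overlapped only through WT replicate 2, and the P300KO replicates were the most spread. Regions of Cdk6 (142 kb, ranks 2070 to 4746), a kinase of G1 phase, and of Ccnd3 (16.1 kb, 1345 to 4712, and 5.84 kb, 3515 to 7631), a D-type cyclin, came next, followed by Btg2 (13.6 kb, 4111 to 8078, and 17.4 kb, 4923 to 7260), which restrains proliferation.

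Among 30 chromatin and cohesin genes, 4 were nearest to 5 members (0.839%, against 0.146%). These were Ezh2, the methyltransferase of Polycomb complex 2 (55.1 kb, ranks 2050 to 5747), Ctcf itself (12.9 kb, in an intron of Agrp, 3108 to 4796), Arid1a of the BAF remodelling complex (12.9 kb, 2377 to 7584) and the DNA methyltransferase Dnmt3a (4.45 kb, 3287 to 9843, and 4.63 kb, 4596 to 9108). A member lay within 100 kb of 6 of the 30. Among 32 receptor and surface genes, 5 were nearest to 5 members (0.839%, against 0.545%), and 9 had a member within 100 kb. They were Notch1 (ranks 2715 to 6446), Selp (3334 to 6034), Ptprc, which encodes the pan-leukocyte antigen CD45 (3441 to 9103), Cd44 (4081 to 7077) and the stem cell antigen Cd34 (4242 to 9052). With so few members a list, these shares are given as counts and no difference from the other regions was tested.

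The borders of the set were set by rank and by distance. Just inside by rank were the Adap1 region (worst rank 9989, in P300KO replicate 1), the AC122243.1 region (9979) and the Slc24a3 region (9975, both in P300KO_TET2KO replicate 2). Just outside were the Arpc2 region (10001, in WT replicate 2), the n-R5s26 region (10007, in WT replicate 1) and the Jarid2 region (10010, in P300KO_TET2KO replicate 3). By distance, the members nearest to a start were at 3012, 3065 and 3075 bp (Gm44006, Celsr1 and Map2k3), and the excluded regions farthest from one were at 2969, 2954 and 2928 bp (Trp53i11, 5430420F09Rik and Atp13a2). In 15 of the 16 lists 179 further distal regions held such an interval, in 1 list 592 and in none 207836.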

How the data were processed

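ATAC-Seq was performed on 50000 viable HSPCs per library. The authors trimmed reads with cutadapt 1.9.1, aligned them to mm10 with Bowtie2 2.2.6 and called replicate peaks with MACS2 2.1.0, as the study's methods and the submitters' processing notes state. The deposited lists give, for each peak, the fold enrichment over local background (a ratio) and its −log10 p, both computed by the authors, with the summit position. The −log10 p grows with depth, which the lists do not state, so ranks were used. Peak numbers followed −log10 p, and every list lacked some of them, with a higher share among the first 100, for a reason not given in the sources used here. Ranks were therefore those of the deposited intervals.

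An interval with several summits was counted once, with its strongest summit. Intervals sharing at least 1 bp were merged. Coordinates are 1-based on mm10, transcript starts and gene places are from GENCODE M21, and sequence and further starts from RefSeq GRCm38.p6. Copies were sought with counts of 31-letter words and BLAST 2.17.0. Log2 ranks were fitted with limma 3.58.1 in R 4.3.3 (empirical Bayes with trend) on 38694 regions and all 16 libraries, with genotype and deposit set as terms and Benjamini-Hochberg adjustment. The fit was also run on simulated ranks with equal noise in every region, no set effect and 200 regions shifted by 2 log2 units. The data differ in these settings, so nothing is read from that run. The members, lists and tests were chosen with earlier results of these data known.

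Named members were those with the lowest mean rank, the smallest and largest SD, the smallest adjusted p, the borders of the set and the gene lists, and the printed windows were picked after their values were seen. Deviations of libraries with the same replicate number correlated at 0.20 to 0.50 between genotypes, all above 0.1. Libraries of another number in the same set correlated at 0.21 to 0.48, so the numbers also followed the set. With the means of each genotype and set removed, libraries of the same number correlated at −0.160 to 0.0733, with a median of −0.0153. The correlation by number thus did not go beyond that of the set. A fit with the replicate number as a block was still run as an alternative, as were other rank scales, thresholds, windows and fits without each library.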

Additional observations from a re-analysis of the deposited data

Results flagged for a closer look

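The log2 ranks of 18 named members and the library medians of rank were looked at in the 4 libraries of each genotype. That made 76 groups in all. In 2 groups a single library stood apart, with a gap to its neighbour beyond Dixon's critical share of the group's range, and chance alone gives about 1 in 20 such groups. In the Abcb11 member (chr2:69355469-69355735) the gap was 0.8297, set by P300KO_TET2KO replicate 3, which ranked it 869 where the other replicates ranked it 4, 6 and 10. In the A430078I02Rik member (chr6:86471898-86473114) the gap was 0.9196, set by P300KO_TET2KO replicate 4, which ranked it 2069 where the others ranked it 1705, 1728 and 1701, a small difference in a tight group.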

How the results depend on the processing

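The number of members, 596, was 87 with the strongest 5000 intervals of each list, 2780 with 20000, 308 at more than 10 kb from a start and 1122 with set 2 alone. Leaving out 1 library gave 596 to 670. The share of members with the Ctcf sequence, 5.03%, was 3.02% with 50 bp on either side, 7.38% over whole regions, 16.8% with 1 mismatch, 8.53% with 20000 intervals and 8.08% with intervals ordered by fold, and 4.95% to 5.22% without 1 library. In what follows the share of all tested regions that passed in the same fit stands in brackets after each count of members. Members passing for P300KO_TET2KO against TET2KO were 0 (0.0439%), and 4 with normal scores (0.176%), 1 by fold (0.463%), 1 with distal regions alone in the fit (0.0598%), 2 without the mean-variance trend (0.0336%) and 8 with set 2 alone (1.54%), with 0 to 4 without 1 library (0.0103% to 0.576%). For P300KO against WT they were 5 (0.835%), and 2 with normal scores (0.708%), 0 by fold (0.0594%), 10 with distal regions alone (1.66%), 0 without the set term (0.0724%), 2 without the trend (0.377%), 0 with set 1 (0%) and 15 with set 2 (2.97%), with 1 to 13 without 1 library (0.225% to 1.67%). For P300KO_TET2KO against P300KO they were 3 (0.171%), and in the same order 5 (0.323%), 1 (0.277%), 5 (0.381%), 0 (0.0258%), 5 (0.0646%), 0 (0.00517%) and 9 (0.845%), with 0 to 8 without 1 library (0.04135% to 0.809%), and 0 without the 13 members of high SD, an alternative added after seeing the data. With the replicate block, 1 member passed in each of the last 2 comparisons (0.519% and 0.155%), and it changed no other count of members. TET2KO against WT gave 0 to 1 without 1 library (0% to 0.0646%) and the interaction 0 (0%). Set 2 against set 1 gave 413 members by fold (63.7%), 47 stronger and 366 weaker in set 2. By −log10 p 222 passed (35.8%), 161 stronger and 61 weaker, and 202 to 244 without 1 library (31.9% to 40.6%). The cause of these shifts was not tested. Of 80 alternatives 48 kept within 1.5 times the value or the interval, and of 128 leave-outs 100 did. Also added after seeing the data, dropping members with copies left 584, dropping those of high SD 583 and dropping those with a RefSeq start 488. Unknown depth limits all ranks.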

Other observations

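Members were found on every chromosome from 1 to 19, with the most on chromosome 11 (56 members) and chromosome 2 (54) and the fewest on chromosome 19 (16). The other shared distal regions were also most numerous on chromosomes 2 (1424) and 11 (1410), and chromosome 19 held 603 of them. Repeat-masked letters made up a mean of 6.53% of a member's window, 10.6% in the other shared distal regions and 16.4% in all distal regions. Cebp strings lay within 25 bp of the summit in 37.5% of matches in members and 23.0% in the other shared distal regions, over 56 and 1928 matches, while Ets strings did so in 28.9% and 37.9%, over 263 and 7521 matches. These shares carry no test.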
